A study of Xenopus tropicalis with 15 samples.

Results

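The endoderm regulators examined here are the transcription factor genes sox17a, sox17b.1, sox17b.2, gata4, gata5, gata6, mix1 and mixer, 8 genes chosen by symbol for their known place in the endoderm pathway. No measured value set the choice, but earlier results of these data were known when it was made. 7 of the 8 have a row among the 28206 genes of the count table, and sox17b.2, which has none, is not analysed here. All 7 passed the filter on low counts that left 14041 genes for testing. The libraries are poly(A) RNA-seq of pooled whole embryos of the frog Xenopus tropicalis, an out-bred Nigerian wild-type stock, at mid-gastrula (stage 11 to 11.5), with 10 embryos per library and 5 libraries in each of 3 conditions. Untreated embryos were the controls. UV-treated embryos had received 2 min of ultraviolet light on their vegetal side, no later than 30 min after fertilisation, which ventralises them. LiCl-treated embryos had been placed in 0.3 M LiCl at the 32-cell stage, which dorsalises them. LiCl bathed the whole embryo, whereas UV was directed at the vegetal side. Clutches entered the study only if most of their embryos showed the phenotype later, so a library can contain embryos with a weaker response. The 5 libraries of a condition came from independent experiments.

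In the frog embryo, maternal VegT in the vegetal cells switches on Nodal ligands, and Nodal signalling through Smad2 and FoxH1 or Mix proteins specifies endoderm at high dose and mesoderm at lower dose. The Mix-type homeobox genes mix1 and mixer are among the earliest genes to respond and are expressed only for a short time around gastrulation. They and Nodal feed into the GATA zinc-finger genes gata4, gata5 and gata6 and into the HMG-box genes of the Sox17 group, which commit cells to endoderm and keep them there. UV and LiCl act on the dorso-ventral axis through maternal Wnt signalling, and endoderm spans that axis, from the dorso-anterior endoderm under the Spemann organiser to the ventral yolk mass. The question of each comparison was therefore whether the endoderm regulators moved when the axis was shifted.

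Total counts per library were 11002771 to 18455126 in untreated, 11890416 to 18254396 in UV-treated and 8412818 to 17737546 in LiCl-treated embryos. No library had fewer than 261 reads on any of the 7 genes, so that spread between libraries, more than read number, limits the values below. The source of that spread was not tested. The number 4 libraries of the untreated and LiCl conditions stood apart. When the counts of pairs of libraries of 1 condition were compared by a chi-square statistic per degree of freedom, which is 1 for sampling noise alone, pairs with untreated replicate 4 gave 45.3 to 131 against 14.2 to 52.8 for the other untreated pairs, and pairs with LiCl replicate 4 gave 78.9 to 111 against 16.8 to 53.0. Untreated replicate 5 also differed from untreated replicates 1 to 3, at 50.2 to 52.8, whereas the pair of untreated replicates 3 and 4 gave 45.3. UV replicates 4 and 5 were the most alike pair, at 4.66 against 17.8 to 55.7 for the other UV pairs, which is still above sampling noise. Both were kept, and the tests below count them as separate replicates. Whether they came from separate experiments was not tested. Results that rest on the libraries numbered 4 are given with and without them. Axis genes, from lists written with earlier results of these data known, describe the shift and do not test it. Of 16 organiser genes tested, 12 were higher and 0 lower in LiCl-treated than in UV-treated embryos. Of 14 ventral genes tested, 0 were higher and 11 lower. At the same threshold, given below, 3.55% of all genes tested were higher and 6.1% changed in either direction. The summed level of the organiser genes was 585 to 1385 CPM in UV-treated, 1972 to 2547 CPM in untreated and 4340 to 5140 CPM in LiCl-treated libraries, where CPM are counts scaled by the effective size of each library.

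Positions come from the deposited gene models and count along scaffolds of assembly v7.1. mix1 (Xetrov72001388) lies on the minus strand of scaffold 5 at 118170609 to 118173173 with 3 exons, and mixer (Xetrov72001353) on the same strand at 118182838 to 118186400, also with 3 exons, in a cluster with the related homeobox genes bix1.1 and bix1.2. gata4 (Xetrov72036594) is on the plus strand of scaffold 5b at 1534238 to 1560513 with 6 exons, gata5 (Xetrov72041408) on the minus strand of scaffold 365 at 53689 to 82733 with 6 exons, and gata6 (Xetrov72034053) on the minus strand of scaffold 6 at 41104571 to 41129801 with 8 exons. sox17a (Xetrov72036248) is on the minus strand of scaffold 6 at 34623567 to 34624868 as a single exon of 1302 bases. No exon of the 7 genes shares bases with an exon of another gene model.

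The sox17b.1 row (Xetrov72034479) needs care, because its model runs from 34598769 to 34625941 on the same strand and encloses the whole sox17a model. Its 7 transcript models merge into 5 exons with 3343 bases. One exon of 412 bases lies 661 bases upstream of the sox17a exon, a second pair of 378 and 1146 bases lies downstream of it, and another pair of 396 and 1011 bases lies further downstream. RefSeq's annotation of a later assembly (UCB_Xtro_10.0) orders sox17a, sox17b.1 and sox17b.2 as neighbours on chromosome 6. The sox17b.1 row can therefore hold reads from more than 1 sox17 gene, and its values are those of the row, not of a single paralog. How reads shared by near-identical copies were split is not known from the sources used here.

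**Figure D1:**
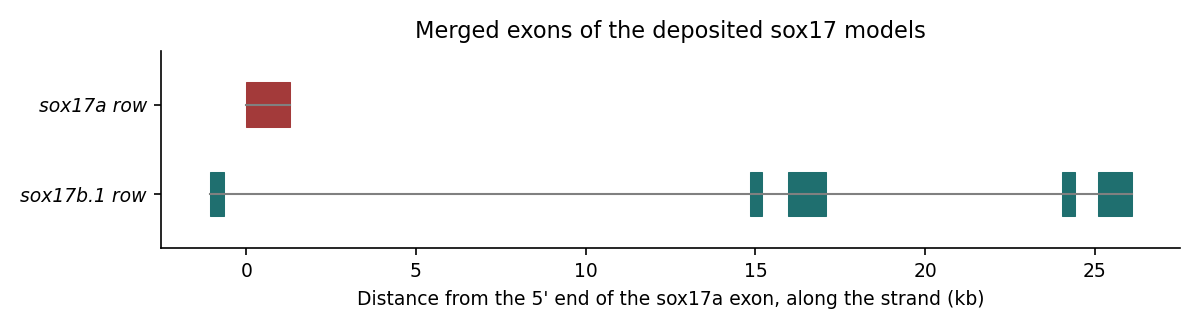
Merged exons (boxes) of the deposited sox17a and sox17b.1 models, in kb from the 5′ end of the sox17a exon along the transcribed strand. The sox17b.1 row has 5 exons, 1 of which (412 bases) lies upstream of the single sox17a exon and 4 downstream of it.

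Levels are given as CPM with TMM effective library sizes, and levels between genes are compared as CPM per kb of merged exon. Over the 15 libraries the mean level per kb was highest for sox17a (327 CPM per kb) and mixer (284), followed by mix1 (146), gata4 (77.5), sox17b.1 (72.3), gata6 (54.3) and gata5 (17.2). The sox17a and mixer levels lay at percentiles 98.6 and 98.3 of the genes tested, and gata5 at percentile 72.0. The share of the variance of log2 CPM that lay between conditions was 80.9% for gata4 and 21.3% to 44.2% for the other 6 genes. The share that lay between replicate numbers was 8.24% for gata4 and 41.5% for the sox17b.1 row.

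**Figure D2:**
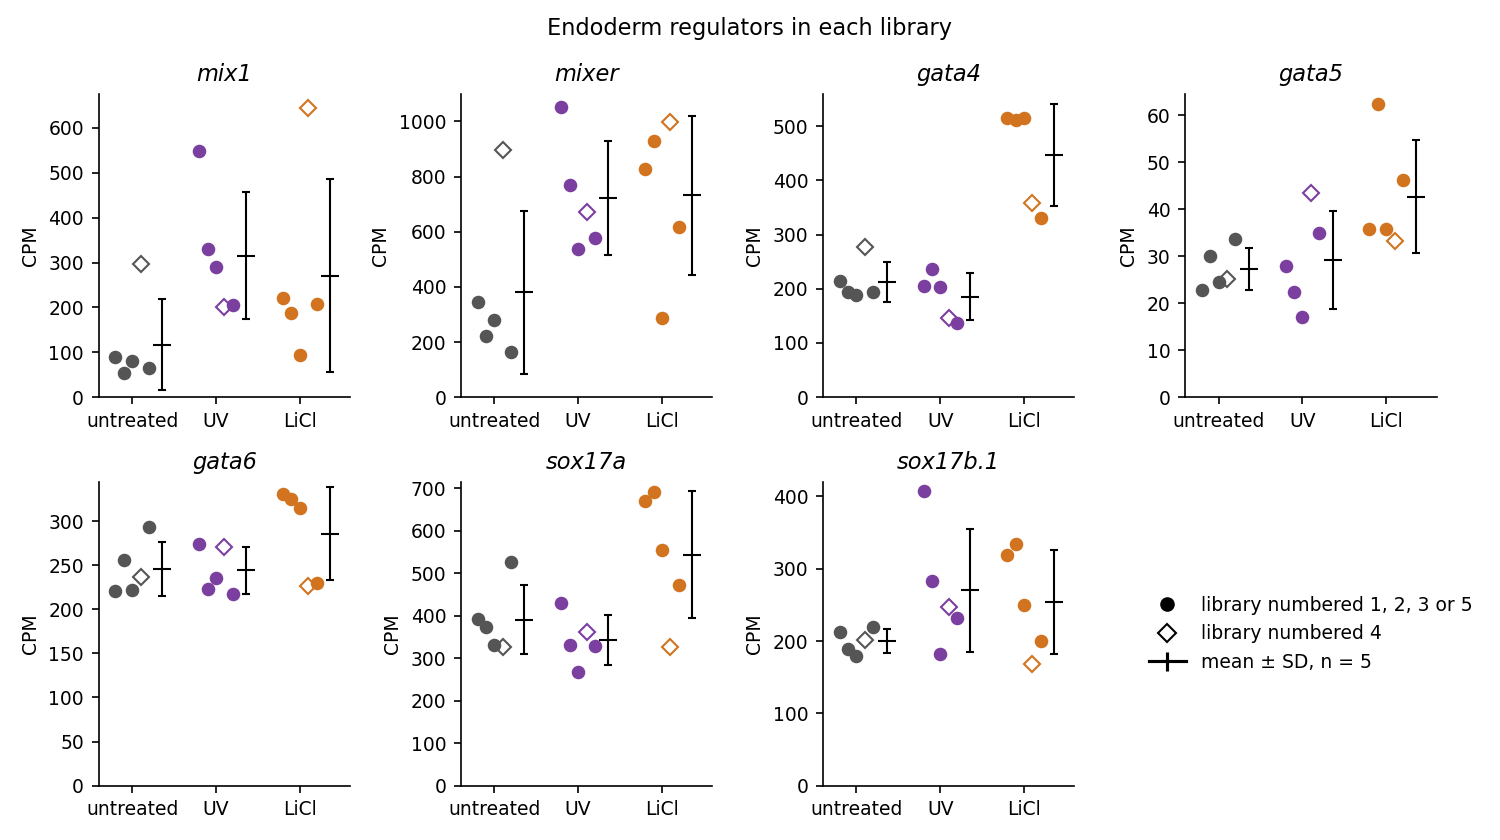
CPM (vertical axes, from 0) of the 7 endoderm regulators in every library of the 3 conditions, with the libraries numbered 4 as open diamonds and the mean ± SD of 5 libraries as bars. Only for gata4 do the LiCl-treated libraries (331.2 to 516.3 CPM) lie above every untreated and UV-treated library, and the untreated number 4 library stands above the other untreated ones for mix1 (296.0 CPM) and mixer (895.5 CPM).

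A gene was called upregulated or downregulated when it changed 2-fold or more and its false discovery rate (FDR) was 1% or less, from edgeR's quasi-likelihood test adjusted over all 14041 genes. In LiCl-treated against untreated embryos, 1 of the 7 endoderm regulators was upregulated and 0 downregulated, where 3.67% of all genes tested were called and 2.25% were upregulated. 5 of the 7 had an unadjusted p of at most 0.05, beside 27.1% of all genes. In UV-treated against untreated embryos 0 of 7 were called, against 0.0712% of all genes. 2 of the 7 had an unadjusted p of at most 0.05 in that comparison, beside 11.5% of all genes. DESeq2 also called 0 of the 7, where it called 122 of the 14041 genes and edgeR called 10, so edgeR was the stricter test here. In LiCl-treated against UV-treated embryos 1 of 7 was upregulated and 0 downregulated, against 6.1% of all genes called and 3.55% upregulated. gata4 was the gene called in both LiCl comparisons. These 3 comparisons share libraries, so they are not independent of each other. The fitted log2 fold change was positive for 7 of 7 genes in LiCl-treated against untreated embryos, with a median of 0.65 beside 0.01 over all genes tested. In UV-treated against untreated embryos 4 of 7 were positive, with a median of 0.10 beside -0.02. In LiCl-treated against UV-treated embryos 5 of 7 were positive, with a median of 0.22 beside 0.03. Some of the 7 genes varied together over the libraries, so their signs are not independent. The libraries are of whole embryos, so more endoderm cells and more RNA per cell cannot be told apart.

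**Figure D3:**
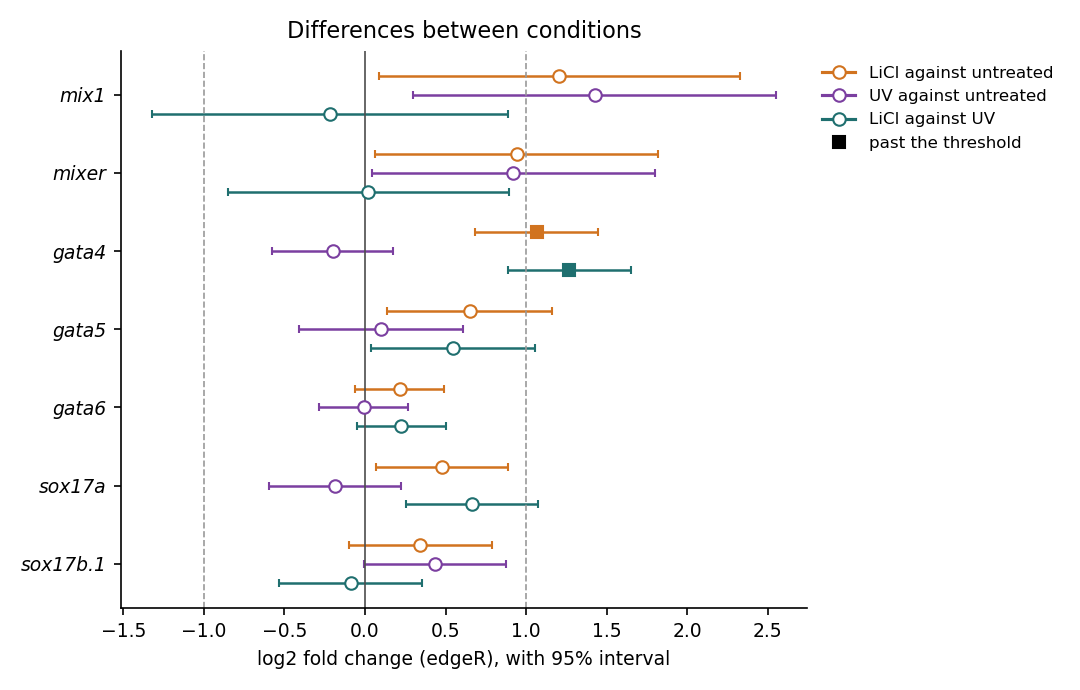
Fitted log2 fold changes (horizontal axis) with 95% intervals of the 7 genes in the 3 comparisons, with dashed lines at a 2-fold change either way and filled squares for the 2 results past the threshold. gata4 stands at 1.07 and 1.27 in the LiCl comparisons and at -0.20 in UV-treated against untreated embryos, and the intervals of mix1 and mixer are the widest.

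mix1, a homeobox gene first known as an immediate target of activin in Xenopus, varied most between libraries. It stood at 90.4, 54.1, 80.6, 296.0 and 64.7 CPM in untreated replicates 1 to 5, at 547.6, 329.6, 289.9, 200.5 and 206.1 CPM in the UV-treated ones, and at 220.1, 187.4, 93.1, 645.2 and 207.3 CPM in the LiCl-treated ones. The treated conditions overlapped each other, and they overlapped with the untreated one through untreated replicate 4, which was 4.08 times the mean of the other 4 untreated libraries. LiCl replicate 4 was likewise 3.65 times the mean of the other 4 LiCl libraries, whereas UV replicate 4 was 0.584 times the mean of its other 4. Without the untreated number 4 library, every UV-treated and every LiCl-treated library lay above every remaining untreated one.

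With all libraries, mix1 was 2.68-fold higher in UV-treated than in untreated embryos (log2 fold change 1.42, SE 0.529, edgeR FDR 0.291) and 2.31-fold higher in LiCl-treated than in untreated embryos (log2 fold change 1.21, SE 0.527, FDR 0.150), and neither passed the threshold. When the libraries numbered 4 were left out, a choice made after the values were seen, mix1 passed in UV-treated against untreated embryos with a log2 fold change of 2.24 (SE 0.326, edgeR FDR 0.00492). It came to 1.29 (FDR 0.0154) in LiCl-treated against untreated embryos and to -0.95 (FDR 0.0498) in LiCl-treated against UV-treated embryos, and did not pass in either. That choice also removes UV replicate 4, the lowest UV-treated library for mix1 (200.5 CPM). Without untreated replicate 4 alone, the UV difference from untreated embryos was 2.12 (edgeR FDR 0.0488) and did not pass. The LiCl difference from untreated embryos turned on single libraries, at 0.59 (FDR 0.427) without LiCl replicate 4 and 1.90 (FDR 0.0129) without untreated replicate 4. The replicate numbers were taken to pair the LiCl-treated and untreated libraries, with a limit for replicate 3 given under the processing. With the number as a block the LiCl difference of mix1 was 1.23 in every such fit. It passed over the 10 libraries of the comparison (edgeR FDR 0.00668) and did not pass over all 15 (FDR 0.0515). Over all alternatives tried, its FDR against untreated embryos ran from 0.00322 to 1 for LiCl and from 0.00155 to 1 for UV. For every gene here, the alternatives include a test of whether the change exceeds 2-fold rather than differs from none, which is harder to pass. In LiCl-treated against UV-treated embryos, with all libraries, mix1 differed by -0.22 (95% interval -1.32 to 0.89, FDR 0.858), an interval that leaves room for a 2-fold lower level.

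mixer, a second Mix-type homeobox gene that drives endoderm genes in Xenopus, had the same odd library. In untreated replicates 1 to 5 it stood at 343.8, 222.9, 279.3, 895.5 and 163.4 CPM. In UV-treated replicates it stood at 1052.7, 768.6, 536.0, 671.8 and 577.9 CPM, and in LiCl-treated replicates at 827.6, 930.5, 285.5, 999.3 and 615.6 CPM. Untreated replicate 4 lay within the range of the treated libraries, so that only 2 LiCl-treated libraries and 1 UV-treated library lay above every untreated one. LiCl replicate 3 also lay within the range of the other untreated libraries. The fold was 1.92 for LiCl (log2 0.94, SE 0.413, edgeR FDR 0.152) and 1.89 for UV (log2 0.92, SE 0.413, FDR 0.408) against untreated embryos, and 1.01 between the treatments (95% interval of the fold 0.555 to 1.85). Leaving out untreated replicate 4 alone brought the LiCl difference past the threshold, at a log2 fold change of 1.53 (edgeR FDR 0.00625, and 0.00625 to 1 over its alternatives). Without any library numbered 4 it was 1.40 for LiCl (FDR 0.0169) and 1.54 for UV (FDR 0.0417), and neither passed.

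mix1 and mixer moved together over the 15 libraries, with a Pearson r of log2 CPM of 0.910, and of 0.860 once the mean of each condition was removed. The libraries share their condition, clutch and depth, so this is a description. The 3 genes whose pattern was most like that of mix1, out of 7726 genes averaging 10 CPM or more, were pabpn1l (r = 0.950), bix1.1 (0.949) and narf (0.940). For mixer they were narf (0.929), fbxo34 (0.919) and mix1 itself. bix1.1, a Mix-type gene of the same cluster, stood at 21.2 CPM in untreated replicate 4 against 4.89 to 9.37 CPM in the other untreated libraries, and at 30.5 CPM in LiCl replicate 4 against 6.90 to 14.04 CPM. For mix1, mixer and bix1.1 alike, number 4 was the highest of the untreated and of the LiCl-treated libraries, although for mixer the next LiCl-treated library was close (930.5 CPM). The ratio of mix1 to mixer counts within a library was 0.304 ± 0.061 (SD, n = 5) in untreated, 0.429 ± 0.104 in UV-treated and 0.355 ± 0.171 in LiCl-treated embryos. None of the 3 differences in that ratio passed (exact permutation test, two-sided, smallest adjusted p = 0.167).

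gata4, a GATA factor of endoderm that also acts in heart mesoderm, was the gene that passed the threshold with all 15 libraries. That the other genes did not pass does not show that they were unchanged. In untreated replicates 1 to 5 it stood at 214.7, 193.7, 188.1, 277.1 and 193.4 CPM, in the UV-treated ones at 205.8, 236.8, 202.8, 146.7 and 136.3 CPM, and in the LiCl-treated ones at 516.3, 511.9, 516.1, 358.4 and 331.2 CPM. The lowest LiCl-treated library lay above the highest untreated and the highest UV-treated library, a separation that 4.23% of all genes tested showed in this direction against untreated and 6.32% against UV-treated embryos. The untreated and UV-treated libraries overlapped.

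gata4 was upregulated 2.09-fold in LiCl-treated against untreated embryos (log2 fold change 1.07, SE 0.179, 95% interval of the fold 1.61 to 2.72, edgeR FDR 0.00174). It was upregulated 2.41-fold against UV-treated embryos (log2 fold change 1.27, SE 0.180, 95% interval of the fold 1.85 to 3.14, FDR 0.000265). In UV-treated against untreated embryos the log2 fold change was -0.20 (95% interval -0.58 to 0.18, FDR 0.769), an interval that holds no 2-fold change in either direction. In both LiCl comparisons gata4 passed in 24 of 25 alternatives, and the exception was a test of whether the change exceeds 2-fold rather than differs from none (edgeR glmTreat, FDR 1 against untreated and 0.323 against UV-treated embryos). Without the libraries numbered 4 the log2 fold change was 1.25 against untreated and 1.27 against UV-treated embryos.

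gata5, which with Mixer and Sox17 promotes endoderm in vertebrate embryos, was the least abundant of the 7. It stood at 22.8, 30.0, 24.4, 25.3 and 33.7 CPM in untreated replicates 1 to 5, at 27.98, 22.4, 17.2, 43.5 and 35.1 CPM in UV-treated ones, and at 35.8, 62.4, 35.8, 33.3 and 46.4 CPM in LiCl-treated ones. 4 of the 5 LiCl-treated libraries lay above all untreated libraries, and the UV-treated libraries spread over both ranges. The fold was 1.57 in LiCl-treated against untreated embryos (log2 0.65, SE 0.240, edgeR FDR 0.0865), 1.46 in LiCl-treated against UV-treated embryos (log2 0.55, SE 0.240, FDR 0.146) and 1.07 in UV-treated against untreated embryos (log2 0.10, SE 0.239, FDR 0.943). None passed the threshold. gata5 was higher in LiCl in 5 of 5 pairs of LiCl-treated and untreated libraries with the same number, and with the number as a block in these 10 libraries the log2 fold change was 0.63 (edgeR FDR 0.00669, and 0.00669 to 1 over its alternatives), still under 2-fold. With the block over all 15 libraries the log2 fold change was 0.64 (FDR 0.0548).

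gata6, another endodermal GATA factor, was the steadiest gene. It stood at 221.1, 256.3, 221.7, 236.3 and 293.3 CPM in untreated replicates 1 to 5, at 274.5, 223.5, 235.4, 271.2 and 217.4 CPM in UV-treated ones, and at 330.6, 325.6, 315.2, 226.4 and 230.0 CPM in LiCl-treated ones. 3 of the LiCl-treated libraries lay above every other library, and the 2 remaining ones lay within the untreated range. The fold was 1.16 in LiCl-treated against untreated embryos (95% interval 0.959 to 1.41) and 1.17 in LiCl-treated against UV-treated embryos (0.965 to 1.41). In UV-treated against untreated embryos it was 0.995 (0.821 to 1.204). All 3 intervals stay within a 2-fold change.

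Whether the GATA genes differed in their response was tested on ratios of counts within a library, which do not depend on the scaling between libraries. The gata4 to gata6 ratio was 1.56 ± 0.0724 (SD, n = 5) in LiCl-treated, 0.882 ± 0.199 in untreated and 0.768 ± 0.203 in UV-treated embryos. It ran from 1.44 to 1.64 in LiCl-treated libraries and reached no more than 1.17 in untreated and 1.06 in UV-treated ones, so the LiCl-treated libraries did not overlap with the others. The mean log2 ratio was 0.85 higher in LiCl-treated than in untreated embryos and 1.06 higher than in UV-treated embryos (exact permutation test, two-sided, p = 0.00794 each, the smallest that 5 against 5 allow, and 0.0298 after adjustment over 15 ratio tests). Without overlap, any pairing of the libraries gives a higher ratio in LiCl, so a count of pairs by replicate number adds no support. Between UV-treated and untreated embryos the mean log2 ratio differed by -0.21 (exact permutation p = 0.389, adjusted 0.486). The ratio of gata4 to gata5 was 10.98 ± 3.38 in LiCl-treated, 8.05 ± 2.14 in untreated and 7.39 ± 3.81 in UV-treated embryos, and none of its 3 differences passed (smallest adjusted exact permutation p = 0.313). The ratio of gata5 to gata6 did not pass either, with a difference of 0.42 on the log2 scale between LiCl-treated and untreated embryos (exact permutation p = 0.0794, adjusted 0.198), although it was higher in LiCl in 5 of 5 pairs with the same number.

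The 3 genes most like gata4 over the 15 libraries were slc12a3.2 (r = 0.955), slc38a3 (0.955), both genes of solute carrier families, and ptprf (0.943), a receptor tyrosine phosphatase gene. Within conditions these correlations were 0.743, 0.772 and 0.735. For gata5 they were etv2 (r = 0.898), clstn2 (0.887) and c22orf23 (0.874). For gata6 they were sox17a (0.847), morf4l1 (0.840) and fam13a (0.830). gata4 and gata5 had an r of 0.411 over all libraries and of -0.41 within conditions.

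sox17a, an endoderm-restricted HMG-box factor, was the most abundant of the 7 per kb. It stood at 392.0, 374.4, 332.2, 326.5 and 527.4 CPM in untreated replicates 1 to 5, at 429.2, 330.1, 266.9, 360.8 and 328.8 CPM in UV-treated ones, and at 671.0, 691.8, 555.2, 327.2 and 473.7 CPM in LiCl-treated ones. LiCl replicate 4 was the library that lay inside the range of the UV-treated ones, and 3 LiCl-treated libraries lay above all untreated ones. The fold was 1.58 in LiCl-treated against UV-treated embryos (log2 0.66, SE 0.192, 95% interval of the fold 1.19 to 2.104, edgeR FDR 0.0283), short of both parts of the threshold. With the number 4 libraries left out the log2 fold change was 0.83 (edgeR FDR 0.00451, and 0.00292 to 1 over its alternatives), still under 2-fold. Against untreated embryos the fold was 1.39 for LiCl (log2 0.48, SE 0.192, FDR 0.115) and 0.879 for UV (log2 -0.19, SE 0.192, FDR 0.818). At an FDR of at most 5% with no minimum fold, sox17a and gata4 were the members called between LiCl-treated and UV-treated embryos, beside 15.2% of all genes. For sox17a this did not hold in the 10 libraries of the comparison alone (edgeR FDR 0.0513). Nor did it hold with the number as a block in them (FDR 0.0765).

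The sox17b.1 row stood at 213.2, 188.7, 178.7, 201.2 and 219.0 CPM in untreated replicates 1 to 5, at 408.0, 283.2, 182.1, 247.1 and 232.1 CPM in UV-treated ones, and at 319.6, 333.7, 249.3, 168.2 and 199.99 CPM in LiCl-treated ones. The untreated libraries were close together, with 4 of the 5 UV-treated and 3 of the 5 LiCl-treated libraries above all of them. The fold was 1.35 in UV-treated against untreated embryos (log2 0.43, SE 0.208, edgeR FDR 0.440), 1.27 in LiCl-treated against untreated embryos (log2 0.34, SE 0.208, FDR 0.317) and 0.939 between LiCl and UV (95% interval of the fold 0.692 to 1.28). With both sox17 rows summed, the log2 fold change was 0.43 for LiCl against untreated (edgeR FDR 0.159), 0.05 for UV against untreated (FDR 0.963) and 0.38 for LiCl against UV (FDR 0.224).

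The proportion of sox17a to sox17b.1 counts within a library did differ. It was 1.84, 1.98, 1.86, 1.62 and 2.41 in untreated replicates 1 to 5, 2.099, 2.07, 2.23, 1.94 and 2.37 in LiCl-treated ones, and 1.05, 1.17, 1.47, 1.46 and 1.42 in UV-treated ones. Every UV-treated library lay below every untreated and every LiCl-treated library. On the log2 scale the UV-treated mean was 0.57 below the untreated one (difference -0.57), and the LiCl-treated mean was 0.72 above the UV-treated one (exact permutation test, two-sided, p = 0.00794 each, adjusted 0.0298). LiCl-treated and untreated embryos differed by 0.15 (exact permutation p = 0.190, adjusted 0.317). Since the sox17b.1 row can hold reads of several sox17 genes, including an exon directly upstream of the sox17a exon, the comparison is between the 2 rows, and which transcripts shifted cannot be read from it. Within conditions the 2 rows had an r of 0.857, and over all 15 libraries 0.577. Genes most like sox17a over all libraries included fam13a (r = 0.949) and lima1 (0.923), and those most like the sox17b.1 row were frem3 (0.931), traf4 (0.918) and sox4 (0.896).

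**Figure D4:**
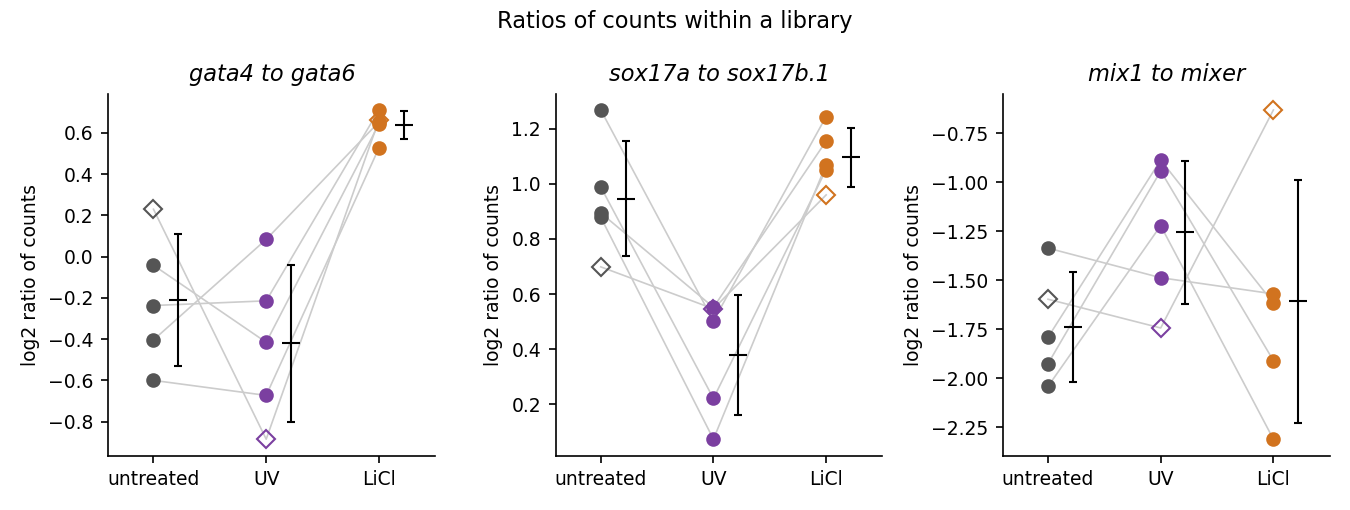
log2 ratios of counts within a library (vertical axes) for gata4 to gata6, sox17a to sox17b.1 and mix1 to mixer, with lines joining libraries of the same number, open diamonds for number 4 and bars for the mean ± SD of 5 libraries. The LiCl-treated libraries stand above all others for gata4 to gata6 (mean 0.64 against -0.21 and -0.42), and the UV-treated ones below all others for sox17a to sox17b.1 (mean 0.38 against 0.95 and 1.096).

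The order of the condition means was not the same for every gene, and whether the orders differ beyond the spread was not tested. For gata4 the mean was 446.8 ± 93.6 CPM in LiCl-treated, 213.4 ± 37.0 CPM in untreated and 185.7 ± 42.6 CPM in UV-treated embryos, and the latter pair did not differ beyond their spread. sox17a had the same order, with 543.8 ± 150.05, 390.5 ± 81.4 and 343.2 ± 59.0 CPM. For mix1 the UV-treated mean was highest (314.7 ± 141.4 CPM), followed by LiCl-treated (270.6 ± 215.3 CPM) and untreated embryos (117.2 ± 100.9 CPM). mixer stood at 731.7 ± 288.5 CPM in LiCl-treated, 721.4 ± 205.8 CPM in UV-treated and 381.0 ± 295.3 CPM in untreated embryos. For sox17a, mix1 and mixer no neighbouring pair of means passed the threshold.

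The genes that act upstream of and beside these regulators were counted from lists. Of 21 genes of Nodal signalling and VegT input tested, 1 was higher and 0 lower in LiCl-treated than in untreated embryos, 0 were called in UV-treated against untreated embryos, and 4 were higher and 1 lower in LiCl-treated than in UV-treated embryos. Over all genes tested, 3.67%, 0.0712% and 6.1% were called in these 3 comparisons, and these shares stand beside each list below. The gene called against untreated embryos was eomes, a T-box activator of mesendoderm genes, with a log2 fold change of 1.33 (SE 0.283, edgeR FDR 0.00665). Between LiCl and UV the 4 higher genes were tdgf1p3 (2.78) and tdgf1p2 (2.41), which encode EGF-CFC co-receptors of Nodal ligands, nodal (1.85) and eomes (1.23), and the lower one, named after its value was seen, was foxh1 (-1.15), the Nodal effector. The median log2 fold change of this list was 0.59, 0.23 and 0.22 in the 3 comparisons, in the order LiCl against untreated, UV against untreated and LiCl against UV.

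Of 12 other transcription factor genes known from endoderm, 0 were called in either comparison with untreated embryos, and 3 were higher and 0 lower in LiCl-treated than in UV-treated embryos. These were hhex (log2 fold change 2.95, edgeR FDR 0.000311), a homeobox gene of the dorso-anterior endoderm, otx2 (2.69, FDR 0.00203), an anterior head gene, and foxa4 (1.64, FDR 3.49e-06), a forkhead gene of the organiser and its derivatives. All 3 also belong to the organiser list and mark the dorsal side. hhex stood at 152.6 ± 17.9 CPM in LiCl-treated, 52.9 ± 13.8 CPM in untreated and 19.7 ± 13.1 CPM in UV-treated embryos. Not being called against untreated embryos does not mean that these 3 genes were unchanged. The log2 fold change of foxa4 was 0.87 for LiCl (edgeR FDR 0.000512, under 2-fold) and -0.77 for UV (FDR 0.0105). That of hhex was 1.53 (FDR 0.0216) and -1.42 (FDR 0.156), and that of otx2 0.17 (FDR 0.878) and -2.53 (FDR 0.0342), in the same order.

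The other lists were counted in the same way. Of all genes tested, 3.67% were called in LiCl-treated against untreated embryos, with 2.25% higher. The share called was 0.0712% in UV-treated against untreated and 6.1% in LiCl-treated against UV-treated embryos. In LiCl-treated against untreated embryos 3 of 16 organiser genes were higher and 0 lower (sia1, frzb and dkk1), 0 of 14 ventral genes higher and 7 lower, 0 of 9 mesoderm genes higher and 3 lower, 0 of 15 epidermal genes higher and 9 lower, and 0 of 13 neural plate genes higher and 1 lower. Among the ventral genes the log2 fold change was -3.42 for evx1, -3.098 for msx1 and -2.22 for wnt8a. In UV-treated against untreated embryos 1 of these genes was called, fst, a gene for a BMP and activin antagonist. Its log2 fold change was -3.67. In LiCl-treated against UV-treated embryos 0 of 9 mesoderm genes were higher and 4 lower, 0 of 15 epidermal genes higher and 12 lower, and 7 of 13 neural plate genes higher and 1 lower. The summed level of the epidermal genes was 2313 to 4568 CPM in LiCl-treated, 6590 to 14357 CPM in untreated and 10593 to 19857 CPM in UV-treated libraries, so that the composition of the RNA differed where gata4 differed. The part of this in the gata4 difference was not tested.

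**Figure D5:**
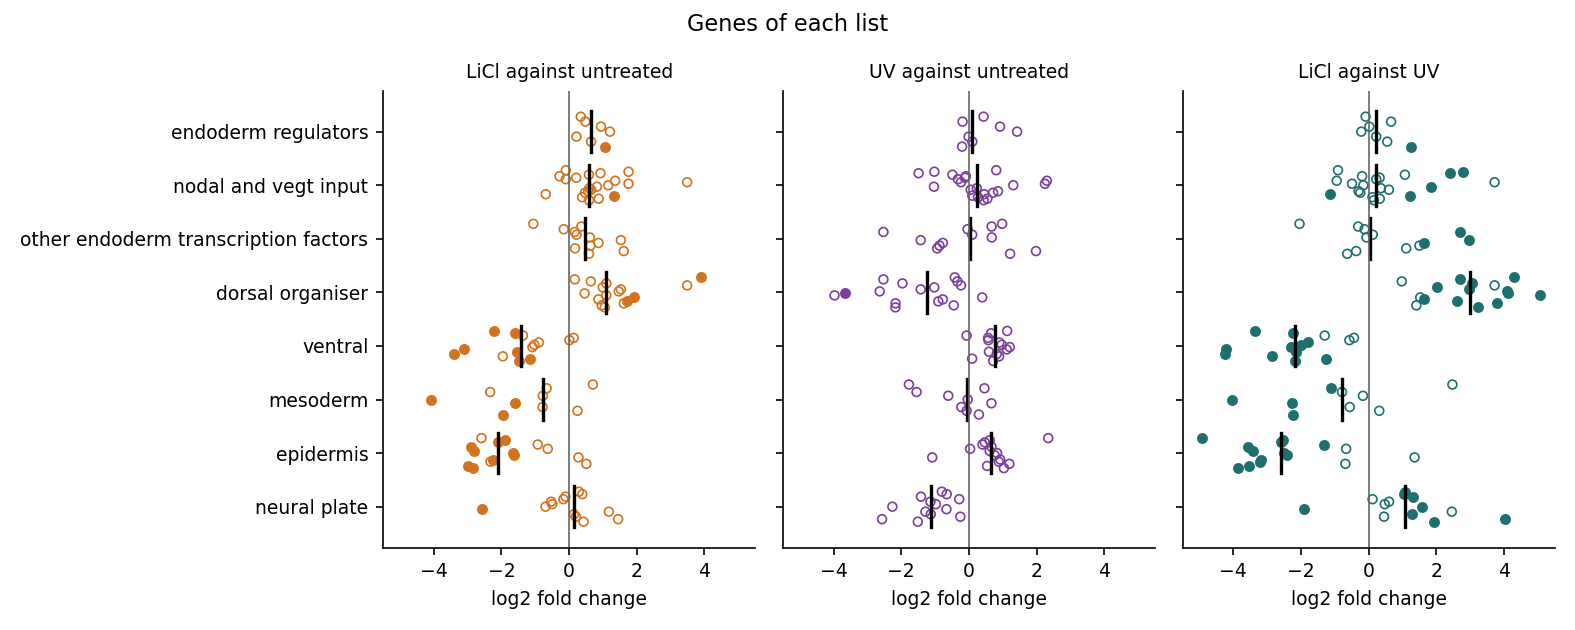
log2 fold changes (horizontal axes) of the genes of each list in the 3 comparisons, with filled points for genes past the threshold, open points for the others and a black line at the median of the list. The median of the endoderm regulators is 0.22 in LiCl-treated against UV-treated embryos, where that of the organiser genes is 3.01 and that of the ventral genes -2.16.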

How the data were processed

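The authors aligned paired-end reads of 50 bases to X. tropicalis gene models v7.2 (assembly v7.1) with Tophat2 without new junctions and counted reads per gene with HTSeq-count (intersection-nonempty). The submitters' processing notes name CASAVA 1.8.2, TopHat2 2.1.1 and 2.0.10, HTSeq and DESeq2. The values analysed are the deposited counts, whole numbers without normalisation, and the deposited gene models, which give exon positions. The strand setting of the counting is not given in the sources used here. Every column was assigned by its sample title and 0 columns were left out.

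The test was edgeR's (version 4.0.16, under R 4.3.3), with filterByExpr, TMM, a robust quasi-likelihood fit to all 15 libraries with condition as the term, and Benjamini-Hochberg adjustment. DESeq2 1.42.0, other normalisations, no filter, a test against a 2-fold change, fits with 10 libraries, blocks and left-out libraries were alternatives. Fold changes used a prior count of 0.125, and log2 CPM for correlations a prior count of 2. SE is the log2 fold change divided by the square root of F. Ratios within a library (0.5 added to each count) were tested in Python 3.11.15 with SciPy 1.17.1 by exact permutation over 252 divisions, with a threshold of 0.05 after adjustment over 15 tests. The planned sum of sox17b.1 and sox17b.2 could not be made. The code was tested on simulated data. limma 3.58.1 is loaded by edgeR, and figures used matplotlib 3.10.9.

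The replicate numbers, which the labels give, were checked as a pairing by correlating the deviations of same-numbered libraries from their condition means. All 5 pairs of LiCl and untreated libraries were over 0.1 (0.338 to 0.731). For UV and untreated libraries 4 of 5 were (-0.25 to 0.54), and for LiCl and UV libraries 4 of 5 (-0.12 to 0.39). In both, the pair that fell short was that of UV replicate 4. Its r was -0.25 with untreated replicate 4 but 0.405 with an untreated library of another number. LiCl replicate 4 had an r of 0.345 with a UV library of another number. UV replicate 1 had an r of 0.253 with untreated replicate 1 but of 0.392 with another untreated library. The comparisons with UV were not taken as paired, and fits of them with the number as a block are given as alternatives only. LiCl replicate 3 had an r of 0.338 with untreated replicate 3 but of 0.371 with an untreated library of another number. The other LiCl libraries had their highest r with the untreated library of the same number.

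The genes and lists were chosen with earlier results of these data known. Named genes are the 7 regulators in all comparisons, at most 4 genes per list with the largest change past the threshold, and the 3 genes most correlated with each regulator over 15 libraries, of which 1 is not reported here. Sequences and promoter motifs were not analysed here.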

Additional observations from a re-analysis of the deposited data

Results flagged for a closer look

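In 3 of 36 groups of 5 libraries checked (7 endoderm regulators and 5 ratios, each in 3 conditions), the extreme library lay further from its neighbour, relative to the range of the group, than Dixon's 95% limit of 0.71. Chance alone gives about 1 such group in 20. All 3 are libraries numbered 4 and genes of the Mix cluster. mix1 stood at 296.0 CPM in untreated replicate 4, with a gap of 0.850 of the range, and at 645.2 CPM in LiCl replicate 4, with a gap of 0.770. mixer stood at 895.5 CPM in untreated replicate 4, with a gap of 0.754.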

How the results depend on the processing

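gata4 was the called gene in both LiCl comparisons, with log2 fold changes of 1.01 to 1.17 against untreated and 1.17 to 1.36 against UV-treated embryos when each library was left out in turn. The count of regulators past the threshold in LiCl against untreated embryos was 0 with the test against a 2-fold change, 2 (gata4 and mix1) with the replicate block in 10 libraries or in 14 (without UV replicate 4), and 1 to 2 when a library was left out, the 2 being gata4 and mixer without untreated replicate 4. In LiCl against UV it was 0 with the test against a 2-fold change, 2 (gata4 and sox17a) at an FDR of at most 5% with no fold minimum, and 1 when a library was left out. In UV against untreated it was 1, mix1, without the libraries numbered 4 (log2 fold change 2.24) and with the replicate block in 14 libraries (2.17), and 0 with the block in 15 or 10 libraries or when a library was left out. The block changed no other call.

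Changes of sign were seen only for values that did not pass. In UV against untreated, gata5 came to -0.12 without the libraries numbered 4, to -0.15 with the block in 14 libraries and to between -0.088 and 0.24 with a library left out. gata6 came to 0.021 with upper-quartile normalisation, 0.0026 without a filter, 0.0078 in the 10 libraries alone, 0.0084 with the block in them and between -0.054 and 0.063 with a library left out. In LiCl against UV, sox17b.1 came to 0.0026 without the libraries numbered 4, to 0.38 summed with sox17a and to between -0.21 and 0.10 with a library left out, and mix1 to between -0.84 and 0.073 with a library left out. mixer came to -0.025 without a filter, -0.064 with the block in 15 and -0.058 in 10 libraries, -0.28 with it in 14, -0.14 without the libraries numbered 4 and between -0.12 and 0.23 with a library left out. The causes were not tested. In all, 511 of the log2 fold changes under alternatives kept their direction and side of the threshold, 30 changed sign, 6 came to pass and 2 no longer passed.

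With 4 libraries on a side the exact test of a ratio cannot pass after adjustment, so ratios were compared as values. The gata4 to gata6 difference was 0.75 to 0.96 (LiCl against untreated) and 0.94 to 1.19 (LiCl against UV) with a library left out, and 0.95 and 0.94 without the libraries numbered 4. That of sox17a to sox17b.1 was -0.63 to -0.49 (UV against untreated) and 0.64 to 0.76 (LiCl against UV), and -0.67 and 0.79 without them. Paired sign flips over 5 pairs allow no p below 0.0625. The planned sum of sox17b.1 and sox17b.2 was not run, as sox17b.2 has no row. With 261 reads or more on every gene in every library, the spread between libraries, more than depth, limits these values.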

Other observations

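The genes in this paragraph are from the list of Nodal signalling and VegT input and were chosen after their values were seen. vegt, a T-box gene whose maternal RNA activates endoderm genes, stood at 1771 ± 146 CPM (SD, n = 5) in UV-treated, 1011 ± 251.9 CPM in untreated and 945 ± 376 CPM in LiCl-treated embryos. The ranges were 1658 to 2004, 777 to 1402 and 434 to 1454 CPM in the same order. Its row does not tell maternal RNA from RNA made by the embryo. The log2 difference was 0.81 in UV against untreated (edgeR FDR 0.170) and -0.91 in LiCl against UV (FDR 0.0176), and neither passed the threshold. The Nodal ligand genes nodal1 and nodal2 had their highest means in UV-treated embryos, at 19.5 ± 11.5 and 25.3 ± 15.6 CPM, against 7.86 ± 5.51 and 5.28 ± 4.83 CPM in untreated and 17.6 ± 9.41 and 18.03 ± 10.1 CPM in LiCl-treated embryos. Neither passed in UV against untreated (FDR 0.348 and 0.147). nodal itself, which is expressed around the organiser, had its lowest mean in UV-treated embryos, at 8.96 ± 4.73 CPM in UV-treated, 18.4 ± 1.79 CPM in untreated and 32.5 ± 9.65 CPM in LiCl-treated embryos.

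bix1.2, a Mix-type gene of the mix1 and mixer cluster, stood at 3.34 ± 0.597 CPM in UV-treated, 0.825 ± 0.591 CPM in untreated and 2.59 ± 1.25 CPM in LiCl-treated embryos. The log2 difference between UV-treated and untreated embryos was 1.98 (edgeR FDR 0.0667), on 4 to 33 reads in the untreated libraries. For bix1.1 the same log2 difference between UV-treated and untreated embryos was 1.22 (FDR 0.223), and for mix1 and mixer it was 1.42 and 0.92. None of these 4 differences passed the threshold with all libraries.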
